A study of Mus musculus with 9 samples.

Results

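Cholesterol is made from acetyl-CoA in a long chain of enzymes, and the transcription factors of the SREBP family switch the genes of these enzymes on when membranes of the endoplasmic reticulum run low in sterol. SCAP carries the SREBP precursor to the Golgi for cleavage, and the INSIG proteins hold it back when sterols are plentiful. The liver X receptors (LXR) act in the opposite situation, since oxysterols activate them to raise genes of cholesterol efflux. The genes described here were a list of 32 written by name from this biology, of 54347 genes in the table. They were 5 genes of SREBP control, 20 enzymes of synthesis, and 7 genes of sterol transport, uptake control, efflux, LXR signalling and storage. The list did not hold every enzyme of the pathway, and others were not analysed here.

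Messenger RNA was measured in 3 mouse myeloid cell lines, with 3 libraries each. Hox-WT came from wild-type bone marrow progenitors immortalized with Hoxb8-ER, a fusion of a homeobox factor with the hormone-binding part of the estrogen receptor. Hox-URE was made the same way from a mouse of genotype UREd/d, in which the upstream regulatory element (URE) of *Spi1* is deleted. *Spi1* encodes PU.1, a master factor of myeloid cells. URE-AML, named B22 in the labels, was grown out from leukemic blasts of a mouse with that same deletion and is labelled as blast-like AML cells. The lines were all kept in medium with 20% fetal calf serum, IL-3, IL-6 and SCF at 10 ng/ml each, and estradiol, with serum as a source of lipoproteins in every line. Each genotype or disease state was 1 line, and a difference between lines cannot be told apart from a difference between their founding cells. One such difference was measured in *Xist*, the RNA of the inactive X chromosome, which had no count in Hox-URE but lay at 22.7 to 27.0 CPM in Hox-WT and 15.4 to 44.0 CPM in URE-AML. Its part in the values of the X-linked genes *Ebp* and *Nsdhl* was not tested. Nothing in the labels says that the libraries of a line were separate cultures, so p-values measure only the spread between these libraries, which may be technical.

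The libraries held 20331064 to 28588718 estimated counts, and all 32 genes were among the 13082 that passed a filter on low counts. Levels are given as CPM, the counts scaled to a common library size, corrected for library composition. *Spi1* was at 110, 101 and 96.5 CPM in Hox-WT, at 0.0364, 0.0414 and 0 CPM in Hox-URE, and at 2.5, 5.52 and 6.35 CPM in URE-AML. The lines thus differed in *Spi1* in the direction of their labels. *Hoxb8* reads were at 61.6 to 69.7 CPM in Hox-WT and 127 to 141 CPM in Hox-URE, and no read of this gene was counted in URE-AML. Of 8 neutrophil markers, all 8 were called lower in Hox-URE than Hox-WT and 7 were called higher in URE-AML, where *Mpo* was called lower, with summed levels of 4010 to 6860 CPM in Hox-WT, 134 to 144 CPM in Hox-URE and 9140 to 20900 CPM in URE-AML. The sum of 6 mast cell or basophil markers was 483 to 838 CPM, 1610 to 5890 CPM and 31.4 to 62.7 CPM in the same order. Of 7 tested monocyte or macrophage markers, 5 were called lower in Hox-URE than Hox-WT and 1 higher, and 4 were called lower in URE-AML. *Adgre1*, the macrophage antigen F4/80, was at 270 to 280 CPM in Hox-WT, 0.218 to 2.66 CPM in Hox-URE and 1.63 to 7.79 CPM in URE-AML. The sum over all 9 listed markers was 302 to 311 CPM, 842 to 945 CPM and 16.8 to 30.0 CPM in that order, and in Hox-URE it was almost wholly *Ccr2*. *Mrc1* did not exceed 0.0429 CPM in any library. The lymphoid markers *Cd3e*, *Ms4a1* and *Ncr1* were at 0 throughout, and summed lymphoid markers did not exceed 2.60 CPM. Summed erythroid or megakaryocyte markers were at 6.33 to 8.46 CPM in Hox-WT, 20.5 to 58.1 CPM in Hox-URE, mostly *Itga2b* and *Gp1ba*, and 2.22 to 10.3 CPM in URE-AML. Of 10 cycling markers, 1 was called higher in Hox-URE than Hox-WT, and 3 were called higher (*Mki67*, *Top2a* and *Birc5*) and 4 lower (*Mcm2*, *Mcm3*, *Mcm6* and *Pcna*) in URE-AML. In bulk RNA, fewer cells of one kind and less RNA per cell cannot be told apart, and the part of these marker differences in the results below was not tested.

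The promoter letters of 4 genes are shown, chosen after their values were seen. *Mvk* and *Abca1* were called in all 3 comparisons, *Hsd17b7* had the widest range between lines among the synthesis enzymes, and *Hmgcs1* had a promoter with a sterol regulatory element. Windows of 250 bases before to 50 bases after the start site were taken from RefSeq on GRCm38.p6, and 27 of the 32 genes had at least 1 window. The 250 bases before the start are printed 5′ to 3′ on the gene's strand. Capitals mark CCAAT boxes on either strand (CCAAT or ATTGG), the E-box CACGTG, and TCACNCCAC, a strict form of the sterol regulatory element. The regions were chr13:119690101-119690350 on the plus strand for *Hmgcs1*, chr5:114444019-114444268 on the plus strand for *Mvk*, chr1:169969206-169969455 on the minus strand for *Hsd17b7* and chr4:53159896-53160145 on the minus strand for *Abca1*.
Hmgcs1: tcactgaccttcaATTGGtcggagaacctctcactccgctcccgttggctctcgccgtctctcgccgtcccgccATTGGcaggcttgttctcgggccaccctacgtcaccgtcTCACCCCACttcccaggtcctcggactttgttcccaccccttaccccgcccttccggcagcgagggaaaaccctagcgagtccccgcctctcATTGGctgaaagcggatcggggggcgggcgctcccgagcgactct
Mvk: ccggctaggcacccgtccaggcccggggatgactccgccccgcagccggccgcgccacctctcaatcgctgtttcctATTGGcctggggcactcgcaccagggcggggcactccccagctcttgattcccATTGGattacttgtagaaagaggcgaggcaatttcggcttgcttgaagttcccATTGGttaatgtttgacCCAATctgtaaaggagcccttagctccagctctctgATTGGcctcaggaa
Hsd17b7: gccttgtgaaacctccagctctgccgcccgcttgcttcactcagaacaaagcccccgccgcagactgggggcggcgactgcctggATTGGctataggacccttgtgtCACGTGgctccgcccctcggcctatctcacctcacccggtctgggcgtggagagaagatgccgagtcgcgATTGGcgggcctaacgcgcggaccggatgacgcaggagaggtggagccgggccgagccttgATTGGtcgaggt
Abca1: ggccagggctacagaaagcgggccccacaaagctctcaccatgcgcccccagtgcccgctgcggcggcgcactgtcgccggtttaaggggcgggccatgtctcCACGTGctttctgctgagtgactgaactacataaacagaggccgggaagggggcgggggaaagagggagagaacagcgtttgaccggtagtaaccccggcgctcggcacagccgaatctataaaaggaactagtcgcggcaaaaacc

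CCAAT boxes are bound by NF-Y, a known partner of SREBP. *Mvk* held 5 of them in its window, *Hsd17b7* held 3 and *Abca1* held none. *Hsd17b7* and *Abca1* each held 1 E-box. *Hmgcs1* held 4 CCAAT boxes and the sterol regulatory element, which began 137 bases before the start site. Over the list, 22 of the 27 genes with a window had a CCAAT box, and 63.9% of their 36 windows held one against 37.4% of all 32851 windows and 38.5% of the windows of tested genes. TCACNCCAC was in 2.78% of the genes' windows (1 gene), in 1.24% of all windows and in 1.12% of those of tested genes. CACGTG was in 19.4% of the genes' windows (6 genes), in 7.15% of all windows and in 9.97% of those of tested genes. The Sp1 box GGGCGG was in 75.0% of the genes' windows, in 35.7% of all windows and in 61.4% of those of tested genes. An exact direct repeat of AGGTCA with a spacer of 4 bases, a strict form of the letters bound by LXR, was in none of the genes' windows. It was in 0.0152% of all windows and in none of those of tested genes, and variants of it were not searched. All motifs were searched on both strands, and no match overlapped a match to another motif. Letter matches describe the windows and do not show binding, and a window without a match may still hold a variant of a motif.

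Differences between lines were tested with edgeR over all 13082 genes, and calls needed both a fold change of more than 1.5 and an adjusted p below 0.05. Between Hox-URE and Hox-WT, 4 of the 32 genes passed as higher in Hox-URE and 7 as lower, or 34.4% of the list, beside 37.2% of all tested genes (21.3% higher and 15.9% lower). The 3 libraries of Hox-URE lay wholly above those of Hox-WT for 4 genes and wholly below for 15, beside 30.9% and 29.4% of all tested genes, or 60.3% in either direction. URE-AML had 7 genes called higher and 6 lower than Hox-WT, or 40.6%, beside 43.2% of all genes (23.0% higher and 20.2% lower). Its libraries lay apart from those of Hox-WT for 13 genes above and 7 below, beside 34.4% and 33.2% of all genes, or 67.6% in either direction. URE-AML had 10 genes called higher and 2 lower than Hox-URE, or 37.5%, beside 42.7% of all genes (20.4% higher and 22.4% lower). Its libraries lay apart for 13 genes above and 4 below, beside 31.8% and 31.1% of all genes, or 62.8% in either direction. By these calls the share of the list was thus near that of all genes in each comparison, and the list did not stand out. A stricter test of the fold change (glmTreat, last section) called a smaller share of the list than of all genes in each comparison. The comparisons with Hox-WT share its 3 libraries, and those with Hox-URE likewise.

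**Figure D1:**
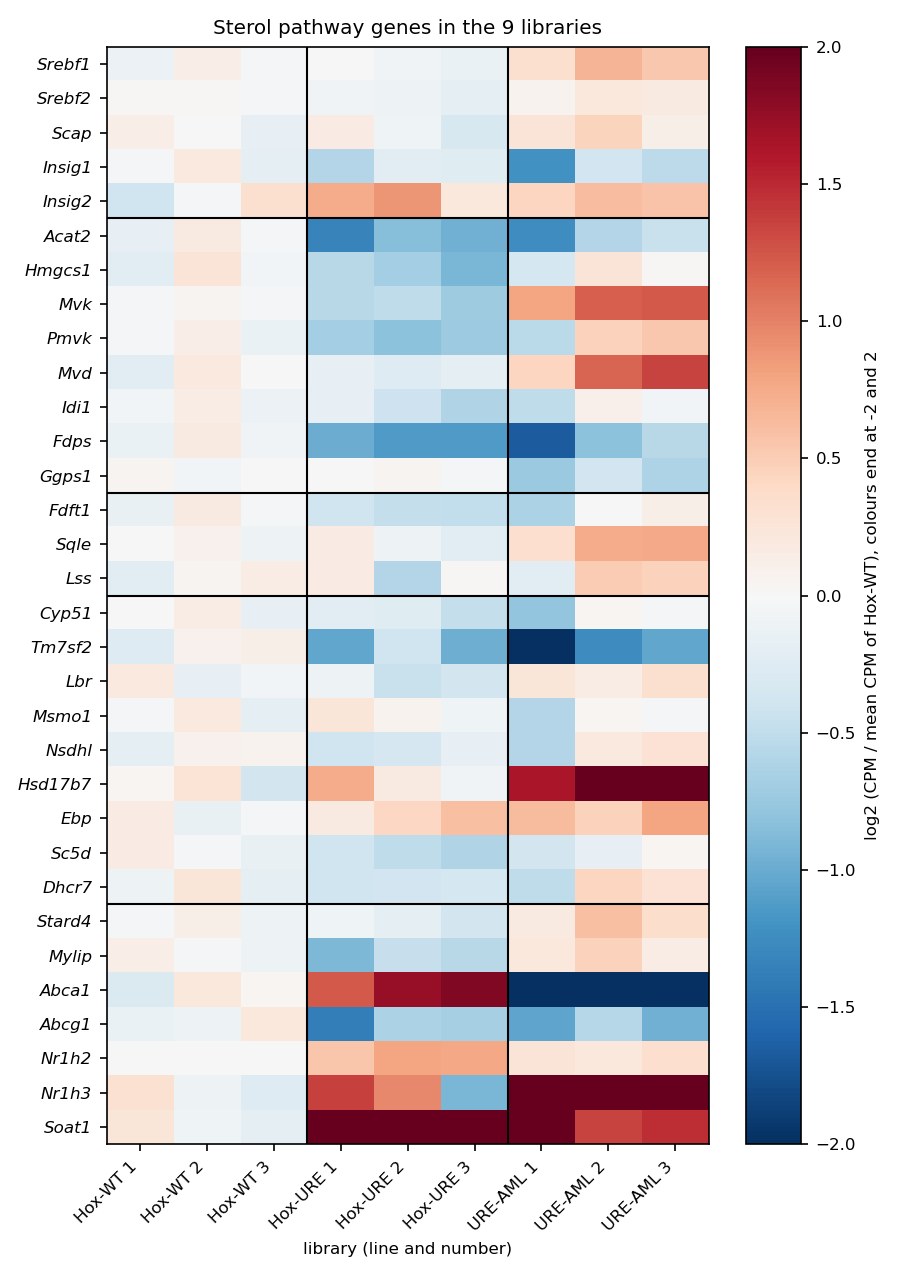
Heat map of the 32 genes (rows, in pathway order, with black lines between the groups of the list) in the 9 libraries (columns), as log2 of the CPM over the mean CPM of Hox-WT; red is higher and blue lower, and colours end at -2 and 2. The Hox-URE columns are mostly blue among the synthesis enzymes, and the first URE-AML column is bluer there than the others.

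Most synthesis enzymes were at their lowest in Hox-URE, which is given as a description with no test of the list. In that line, 16 of the 20 enzymes had a negative log2 fold change against Hox-WT, and their median log2 fold change was -0.34 beside 0.00 over all genes. Of the 20, 5 were called lower and none higher, or 25.0% beside 37.2% of all tested genes (15.9% lower), and without Hox-WT library 2 only 2 (*Acat2* and *Fdps*) were called lower. Their summed level was 1790, 1970 and 1740 CPM in Hox-WT, 1530, 1370 and 1340 CPM in Hox-URE, and 1490, 2050 and 2110 CPM in URE-AML. All Hox-URE libraries were below all Hox-WT libraries in this sum, while URE-AML spanned both. URE-AML had 5 enzymes called higher and 3 lower than Hox-WT with a median log2 fold change of 0.01, and 6 higher and 1 lower than Hox-URE with a median of 0.33. These are 40.0% and 35.0% of the enzymes, beside 43.2% and 42.7% of all tested genes. Without URE-AML library 3, 3 enzymes were called higher in URE-AML than Hox-WT, and without URE-AML library 1 or 3 or Hox-URE library 2 none was called lower than in Hox-URE. Hox-URE had the lowest mean level of the 3 lines for 15 of the 20 enzymes. URE-AML had the highest for 10, Hox-WT for 8 and Hox-URE for 2.

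The 5 genes that control SREBP had small differences between lines, with log2 fold changes from -0.66 to 0.64. *Srebf2*, which encodes SREBP-2, the main activator of sterol synthesis genes, was at 315 to 330 CPM in Hox-WT, 287 to 308 CPM in Hox-URE and 339 to 374 CPM in URE-AML. It was not called in any comparison, and against Hox-WT its log2 fold change was -0.12 ± 0.08 (SE) for Hox-URE and 0.15 ± 0.08 for URE-AML. *Scap*, the escort protein and sterol sensor, was also not called, and its libraries overlapped in every comparison. *Srebf1* encodes SREBP-1, which acts mainly on fatty acid genes. Its levels were 93.9, 112 and 99.6 CPM in Hox-WT, 101, 96.8 and 93.3 CPM in Hox-URE, and 127, 163 and 149 CPM in URE-AML. The URE-AML libraries were above all others, and Hox-WT and Hox-URE overlapped. *Srebf1* was called higher in URE-AML than Hox-URE (log2 fold change 0.59 ± 0.11, edgeR adjusted p = 9e-04), at a fold change of 1.5 that sits on the threshold. That call was lost without URE-AML library 2 (0.51), without URE-AML library 3 (0.58), without Hox-URE library 3 (0.56) and in a fit of only the 6 libraries compared (0.57), and against Hox-WT the gene passed the threshold only without URE-AML library 1 (0.62) or Hox-WT library 2 (0.59).

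The INSIG genes, whose products retain SCAP, had log2 fold changes of opposite sign against Hox-WT in both URE lines. *Insig1*, itself a known SREBP target, was at 37.5, 44.1 and 33.6 CPM in Hox-WT, 25.5, 32.7 and 32.5 CPM in Hox-URE, and 16.6, 29.4 and 26.8 CPM in URE-AML. All libraries of both URE lines were below all Hox-WT libraries. It was called lower in URE-AML than Hox-WT (-0.66 ± 0.20, edgeR adjusted p = 0.0175), a call lost without URE-AML library 1 (-0.45) or Hox-WT library 2 (-0.55), and its value in Hox-URE was -0.35 ± 0.20. *Insig2* was at 9.07, 11.7 and 14.9 CPM in Hox-WT, 19.8, 22 and 13.8 CPM in Hox-URE and 16.1, 18.2 and 17.6 CPM in URE-AML. It was called higher in Hox-URE (0.64 ± 0.21, edgeR adjusted p = 0.0239) although the third Hox-URE library lay within the Hox-WT range. That call did not hold without Hox-URE library 1 (0.59, edgeR adjusted p = 0.0538) or 2 (0.49), nor without Hox-WT library 1 (0.48) or 2 (0.63, edgeR adjusted p = 0.0665). In URE-AML *Insig2* was called against Hox-WT only without Hox-WT library 3 (0.72).

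Of the 8 enzymes of the mevalonate and isoprenoid steps, 5 were called lower and none higher in Hox-URE than Hox-WT, beside 15.9% and 21.3% of all tested genes, with a median log2 fold change of -0.65. Without Hox-WT library 2 the call was lost for *Hmgcs1*, *Mvk* and *Pmvk*, which left 2 called lower. *Acat2*, the cytosolic thiolase that joins 2 acetyl-CoA, was at 68.9, 87.5 and 75.9 CPM in Hox-WT, 30.5, 43.1 and 39.6 CPM in Hox-URE, and 32.7, 51.3 and 56.7 CPM in URE-AML. The libraries of both URE lines were below those of Hox-WT and overlapped each other. *Acat2* was 2.05-fold lower in Hox-URE (log2 fold change -1.04 ± 0.20, edgeR adjusted p = 0.00174) and 1.65-fold lower in URE-AML (-0.72 ± 0.20, edgeR adjusted p = 0.0109), the latter not called without URE-AML library 1 (-0.52). Its neighbour *Acat3*, a related gene, was at no more than 0.475 CPM in any library, and how reads were divided between them was not tested.

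*Fdps* makes farnesyl diphosphate, the branch point to sterols and prenylated proteins, and had the highest level per kilobase of coding transcript of the 32 genes in Hox-WT. Its levels were 266, 331 and 280 CPM in Hox-WT, 147, 134 and 133 CPM in Hox-URE, and 92.9, 166 and 199 CPM in URE-AML. Every library of the URE lines was below every Hox-WT library, and the URE-AML libraries spread from below to above those of Hox-URE. The gene was 2.12-fold lower in Hox-URE (-1.08 ± 0.23, edgeR adjusted p = 0.00247) and 1.92-fold lower in URE-AML (-0.94 ± 0.23, edgeR adjusted p = 0.00477). With *Acat2*, it was one of the enzymes called lower than Hox-WT in both URE lines.

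*Mvk*, mevalonate kinase, was the enzyme called in all 3 comparisons. It was at 26.2, 27.9 and 26.2 CPM in Hox-WT, 18.3, 18.9 and 16.3 CPM in Hox-URE, and 46.5, 61.6 and 62.9 CPM in URE-AML. No line overlapped another, with Hox-URE lowest and URE-AML highest. It was 2.13-fold higher in URE-AML than Hox-WT (1.09 ± 0.13, edgeR adjusted p = 4.29e-05) and 3.19-fold higher than Hox-URE (1.67 ± 0.13, edgeR adjusted p = 2.38e-06). The lower level in Hox-URE than Hox-WT was just past the fold threshold (-0.59 ± 0.13, edgeR adjusted p = 0.00333) and was not called without Hox-URE library 3 (-0.54) or Hox-WT library 2 (-0.56), nor with DESeq2 (-0.58). *Mvk* lies on chromosome 5, where the median log2 fold change of 828 tested genes was 0.18 for URE-AML against Hox-WT and 0.23 against Hox-URE, and the part of this in the value of *Mvk* was not tested.

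*Mvd* encodes the decarboxylase that ends the mevalonate steps. It was at 27.7, 37.1 and 32.5 CPM in Hox-WT, 28.9, 27.2 and 28.6 CPM in Hox-URE, and 43.7, 72.5 and 82.8 CPM in URE-AML. URE-AML was above both other lines, which overlapped. The gene was 2.04-fold higher in URE-AML than Hox-WT (1.03 ± 0.21, edgeR adjusted p = 0.0016) and 2.35-fold higher than Hox-URE (1.23 ± 0.21, edgeR adjusted p = 5.53e-04).

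*Hmgcs1*, the HMG-CoA synthase whose promoter held the sterol regulatory element printed above, was at 89.6, 125 and 101 CPM in Hox-WT, 71.6, 65.4 and 56.0 CPM in Hox-URE, and 82.7, 126 and 107 CPM in URE-AML. Hox-URE was below both other lines, which overlapped almost fully. The log2 fold change was -0.71 ± 0.17 for Hox-URE against Hox-WT (edgeR adjusted p = 0.00579), 0.71 ± 0.17 for URE-AML against Hox-URE (edgeR adjusted p = 0.00491) and 0.00 ± 0.17 for URE-AML against Hox-WT. The first call was lost without Hox-WT library 2 (-0.57) and the second without URE-AML library 2 (0.56). *Pmvk*, phosphomevalonate kinase, had the same order, at 21.8 to 26.3 CPM in Hox-WT, 13.6 to 14.9 CPM in Hox-URE, and 16.5, 33.0 and 34.7 CPM in URE-AML. It was called lower in Hox-URE than Hox-WT (-0.74 ± 0.24, edgeR adjusted p = 0.0235) and higher in URE-AML than Hox-URE (0.97 ± 0.24, edgeR adjusted p = 0.00541). The first of these was not called without Hox-URE library 2 (-0.71, edgeR adjusted p = 0.0684) or without Hox-WT library 1 (-0.75, edgeR adjusted p = 0.05) or 2 (-0.66, edgeR adjusted p = 0.0737).

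*Idi1*, isopentenyl diphosphate isomerase, was not called in any comparison, with log2 fold changes between -0.38 and 0.25. *Ggps1*, which makes geranylgeranyl diphosphate for prenylated proteins and leaves the path to sterol, was the 1 enzyme called lower in URE-AML than Hox-URE. It was at 19.6 to 21 CPM in Hox-WT, 19.8 to 21.1 CPM in Hox-URE, and 12.1, 15.5 and 13.2 CPM in URE-AML, where all libraries were below those of the other lines. The log2 fold change was -0.59 ± 0.12 (edgeR adjusted p = 0.00144), and a difference of like size from Hox-WT (-0.58 ± 0.12, edgeR adjusted p = 0.00154) was just inside the fold threshold. The call against Hox-URE was lost without URE-AML library 1 (-0.51) or 3 (-0.56) or Hox-URE library 2 (-0.56). That against Hox-WT was gained without URE-AML library 2 (-0.68), without any 1 Hox-URE library (-0.59 each), and without Hox-WT library 2 (-0.60) or 3 (-0.59).

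**Figure D2:**
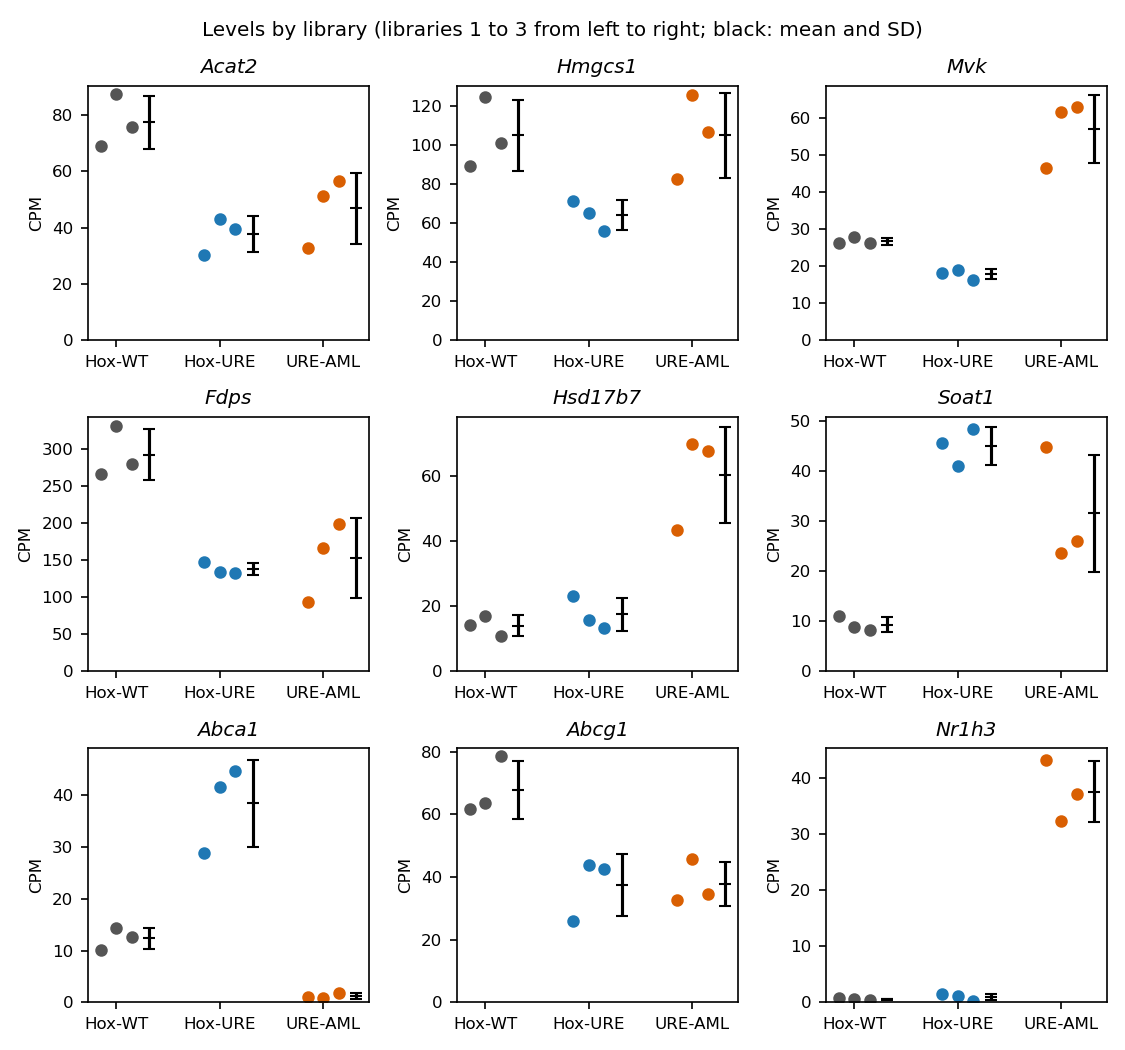
CPM of 9 genes in each library (points, libraries 1 to 3 from left to right within a line), with the mean and SD of each line in black; each panel has its own linear axis from 0. *Mvk* runs from 16.3 to 18.9 CPM in Hox-URE to 46.5 to 62.9 CPM in URE-AML, and *Nr1h3* is near 0 outside URE-AML.

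Squalene and lanosterol are made by *Fdft1*, *Sqle* and *Lss*, and none of these 3 genes was called between Hox-URE and Hox-WT, beside 37.2% of all tested genes. Their log2 fold changes there were -0.45, -0.04 and -0.10. *Sqle*, squalene epoxidase, a rate-limiting step, was at 142, 151 and 132 CPM in Hox-WT, 159, 132 and 122 CPM in Hox-URE, and 180, 238 and 239 CPM in URE-AML. URE-AML was above both other lines, which overlapped. The gene was 1.55-fold higher in URE-AML than Hox-WT (0.63 ± 0.13, edgeR adjusted p = 0.00244) and 1.59-fold higher than Hox-URE (0.67 ± 0.14, edgeR adjusted p = 0.00174), and the first call was lost without URE-AML library 2 (0.57) or 3 (0.56) or Hox-WT library 3 (0.57). *Sqle* lies on chromosome 15, where 511 tested genes had a median of -0.39 between URE-AML and Hox-URE, opposite in sign to this gene. Their median was 0.33 for Hox-URE against Hox-WT and -0.00 for URE-AML against Hox-WT. *Srebf2* lies on the same chromosome, and the part of this in the values of both genes was not tested. *Fdft1*, squalene synthase, and *Lss*, lanosterol synthase, overlapped between URE-AML and each other line. *Lss* was called higher in URE-AML than Hox-URE only without URE-AML library 1 (0.59).

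Of the 9 enzymes that turn lanosterol into cholesterol, none was called between Hox-URE and Hox-WT, beside 37.2% of all tested genes. *Hsd17b7*, a ketosteroid reductase of the late steps, had the widest range among the synthesis enzymes. It was at 14.4, 17.0 and 10.8 CPM in Hox-WT, 23.3, 15.8 and 13.4 CPM in Hox-URE, and 43.4, 69.8 and 67.6 CPM in URE-AML. The Hox lines overlapped, and every URE-AML library was above them. It was 4.29-fold higher in URE-AML than Hox-WT (2.10 ± 0.26, edgeR adjusted p = 6.07e-05) and 3.43-fold higher than Hox-URE (1.78 ± 0.26, edgeR adjusted p = 1.86e-04).

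*Tm7sf2* and *Lbr* encode the sterol reductases that act on the same double bond, and LBR is also the lamin B receptor of the nuclear envelope. *Tm7sf2* was at 9.59, 12.2 and 12.5 CPM in Hox-WT, 5.61, 8.74 and 5.82 CPM in Hox-URE, and 1.49, 4.80 and 5.58 CPM in URE-AML. No 2 lines overlapped, and URE-AML was lowest. It was 2.90-fold lower in URE-AML than Hox-WT (-1.54 ± 0.39, edgeR adjusted p = 0.00673). For Hox-URE against Hox-WT its log2 fold change was -0.77 ± 0.38 and not called (edgeR adjusted p = 0.114). It was called there without URE-AML library 1, which enters this comparison through the shared spread (edgeR adjusted p = 0.0131), and in a fit of only the 6 libraries compared (-0.78, edgeR adjusted p = 0.0169). *Lbr* was far higher per kilobase of coding transcript, with means of 78.8, 63.8 and 92.5 CPM per kb from Hox-WT through Hox-URE to URE-AML against 7.64, 4.49 and 2.64 for *Tm7sf2*. *Lbr* was not called in any comparison, and its 0.54 ± 0.12 for URE-AML against Hox-URE passed the threshold without Hox-URE library 1 (0.64).

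*Ebp*, the sterol isomerase, was at 70.3, 56.5 and 61.6 CPM in Hox-WT, 71.1, 83.4 and 95.4 CPM in Hox-URE, and 97.6, 86.7 and 108 CPM in URE-AML. Both URE lines were above Hox-WT. It was called higher in URE-AML (0.63 ± 0.13, edgeR adjusted p = 0.00208), a call lost without URE-AML library 3 (0.55) or Hox-WT library 2 (0.56), and in Hox-URE its value of 0.41 ± 0.13 stayed inside the fold threshold. *Cyp51* (lanosterol demethylase), *Msmo1* and *Nsdhl* (removal of methyl groups), *Sc5d* (desaturase) and *Dhcr7* (the reductase of the last step from dehydrocholesterol) were not called in any comparison, with log2 fold changes from -0.50 to 0.50. Of these, *Dhcr7* was called higher in URE-AML than Hox-URE when URE-AML library 1 was left out (0.74, edgeR adjusted p = 0.00156).

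**Figure D3:**
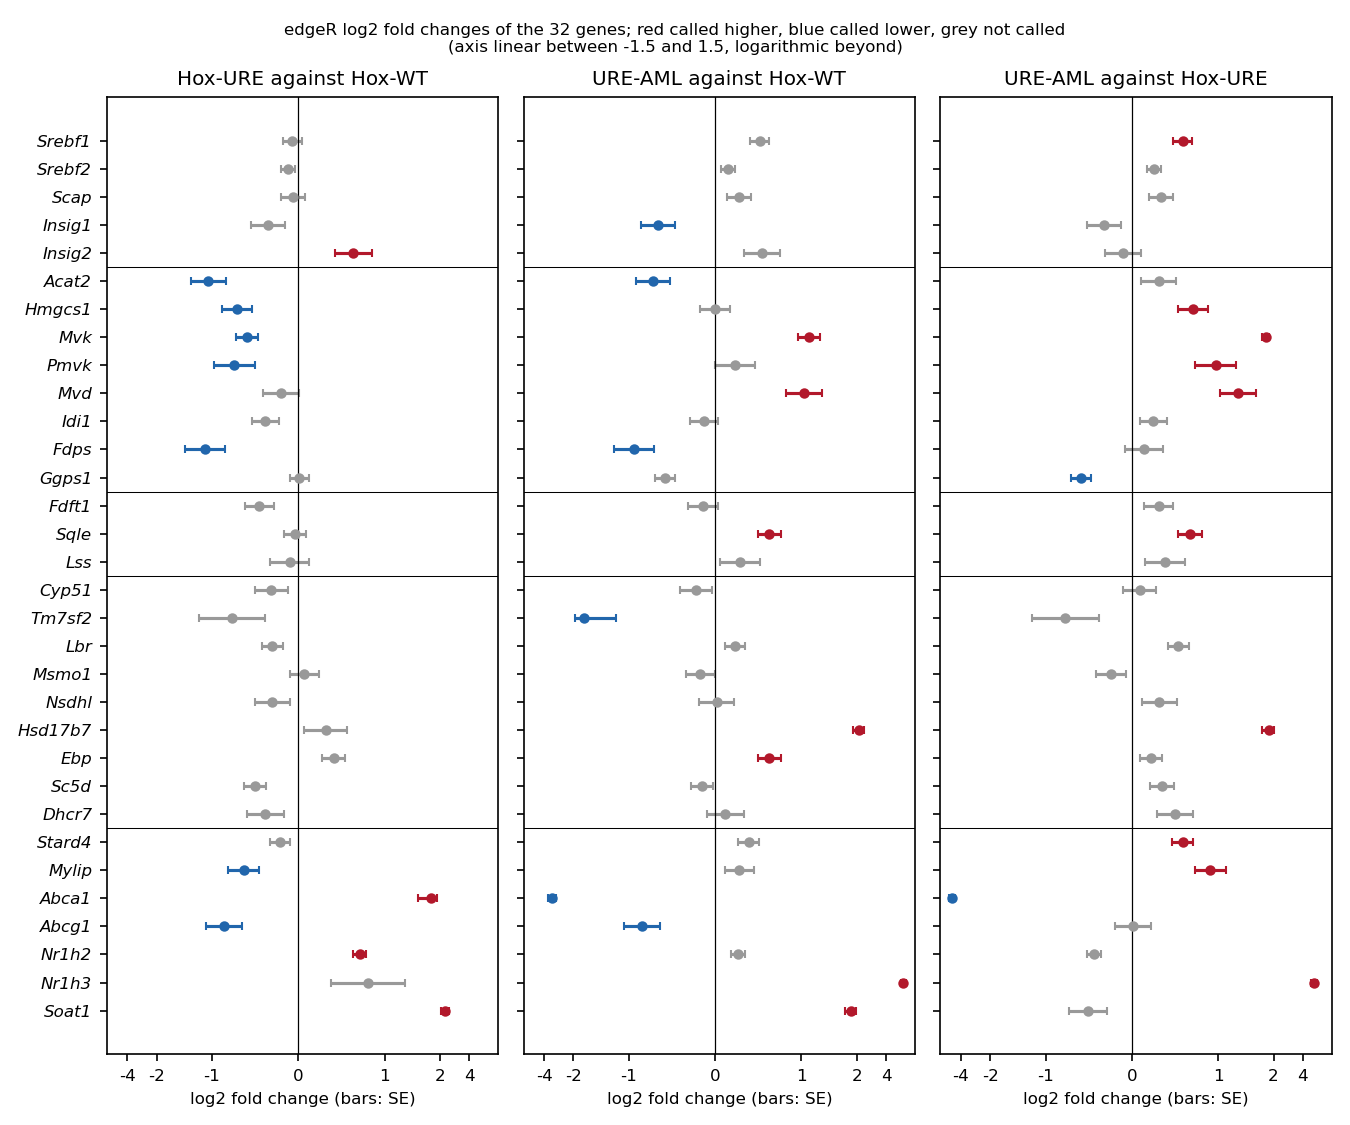
Log2 fold changes from edgeR for the 32 genes (rows) in the 3 comparisons (panels), with bars of 1 SE; red genes were called higher, blue lower and grey not called, and the axis is linear between -1.5 and 1.5 and logarithmic beyond. *Abca1* lies at 1.63 in the first panel and at -4.96 in the third, and *Nr1h3* at 6.02 in the second.

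Genes of efflux, LXR signalling and storage had the largest differences on the list. *Nr1h3* encodes LXRα. It was at 0.712, 0.535 and 0.484 CPM in Hox-WT, 1.49, 1.12 and 0.306 CPM in Hox-URE, and 43.2, 32.4 and 37.1 CPM in URE-AML. The Hox lines overlapped at low level, and URE-AML was far above them. The gene was 64.9-fold higher in URE-AML than Hox-WT (6.02 ± 0.37, edgeR adjusted p = 3.97e-07) and 37.0-fold higher than Hox-URE (5.21 ± 0.35, edgeR adjusted p = 8.79e-07). It was called higher in Hox-URE than Hox-WT only when the third Hox-URE library was left out (1.17), beside 0.81 ± 0.43 with it. *Nr1h3* (chr2:91184061-91202834, GRCm38, minus strand) lies 68.3 kb beyond the end of *Spi1*. Of 13 other tested genes within 200 kb of *Spi1*, 5 were called higher and none lower in URE-AML than Hox-WT, beside 23.0% and 20.2% of all tested genes, with log2 fold changes from -0.34 to 5.28. The highest was *Pacsin3*, a gene of membrane trafficking, and this neighbourhood was looked at after the values were seen. In Hox-URE, which has the same deletion, these other genes ran from -2.38 to 1.15 against Hox-WT. Some were called higher and some lower there, and *Pacsin3* was not called (0.76).

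*Nr1h2* encodes LXRβ, the form found in most cells. It was at 79.2 to 79.8 CPM in Hox-WT, 117, 137 and 136 CPM in Hox-URE, and 92.1 to 100 CPM in URE-AML. No 2 lines overlapped, and Hox-URE was highest. It was called higher in Hox-URE than Hox-WT (0.71 ± 0.08, edgeR adjusted p = 7.2e-05), and in URE-AML its log2 fold change was 0.27 ± 0.08. Per kilobase of coding transcript, *Nr1h2* exceeded *Nr1h3* in every line, with means of 39.8, 65.0 and 48.0 CPM per kb against 0.295, 0.497 and 19.2.

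*Abca1*, the exporter that loads cholesterol onto apolipoprotein and a textbook LXR target, moved in opposite directions in the URE lines. It was at 10.2, 14.3 and 12.7 CPM in Hox-WT, 28.9, 41.6 and 44.8 CPM in Hox-URE, and 1.01, 0.808 and 1.84 CPM in URE-AML. No line overlapped another, with Hox-URE highest and URE-AML lowest. It was 3.10-fold higher in Hox-URE than Hox-WT (1.63 ± 0.24, edgeR adjusted p = 2.81e-04), 10.1-fold lower in URE-AML than Hox-WT (-3.33 ± 0.29, edgeR adjusted p = 5.27e-06) and 31.2-fold lower in URE-AML than Hox-URE (-4.96 ± 0.30, edgeR adjusted p = 3.72e-07). *Abcg1*, the exporter that hands cholesterol to high-density lipoprotein and another LXR target, was at 61.6, 63.6 and 78.6 CPM in Hox-WT, 26.0, 43.8 and 42.7 CPM in Hox-URE, and 32.8, 45.8 and 34.7 CPM in URE-AML. Both URE lines were below Hox-WT and overlapped each other. It was called lower in Hox-URE (-0.86 ± 0.21, edgeR adjusted p = 0.00563) and likewise in URE-AML (-0.85 ± 0.21, edgeR adjusted p = 0.00527), with 0.01 ± 0.21 between them. The exporters thus differed from each other in direction in Hox-URE.

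*Mylip*, an LXR target whose product is a ubiquitin ligase that limits lipoprotein uptake, was at 7.68, 6.89 and 6.53 CPM in Hox-WT, 3.79, 5.09 and 4.80 CPM in Hox-URE, and 8.15, 9.65 and 7.81 CPM in URE-AML. The order was Hox-URE, Hox-WT and URE-AML with no overlap. It was called lower in Hox-URE than Hox-WT (-0.63 ± 0.18, edgeR adjusted p = 0.0125), a call lost without Hox-URE library 1 (-0.51) or Hox-WT library 1 (-0.56), and higher in URE-AML than Hox-URE (0.91 ± 0.18, edgeR adjusted p = 0.00138). In URE-AML, where *Nr1h3* was highest, the LXR targets among the 32 genes stood at -3.33 (*Abca1*), -0.85 (*Abcg1*), 0.28 (*Mylip*) and 0.52 (*Srebf1*) against Hox-WT, with the first 2 called lower and the others not called. *Rnf145*, an LXR target outside the 32 genes, was called lower in URE-AML than Hox-WT (-0.64 ± 0.13, edgeR adjusted p = 0.00171). *Abca7*, related to *Abca1* but not counted as an LXR target here, was called higher (1.51 ± 0.11, edgeR adjusted p = 9.71e-07). LXR targets outside the 32 genes that were not called are not named, so this is no survey of them.

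*Soat1* esterifies cholesterol for storage in droplets. It was at 11.0, 8.78 and 8.19 CPM in Hox-WT, 45.5, 41.0 and 48.4 CPM in Hox-URE, and 44.8, 23.7 and 26.0 CPM in URE-AML. Both URE lines were above Hox-WT, and the first URE-AML library lay within the Hox-URE range. The gene was 4.82-fold higher in Hox-URE (2.27 ± 0.23, edgeR adjusted p = 2.7e-05) and 3.38-fold higher in URE-AML (1.76 ± 0.23, edgeR adjusted p = 1.02e-04). The URE lines differed from each other by -0.51 ± 0.22 (edgeR adjusted p = 0.0705), which was called without URE-AML library 1 (-0.85). *Stard4*, a cytosolic sterol carrier and SREBP target, was at 84.2 to 98.2 CPM in Hox-WT, 70.1 to 85.0 CPM in Hox-URE and 102 to 138 CPM in URE-AML. URE-AML was above both other lines. It was called higher in URE-AML than Hox-URE (0.59 ± 0.12, edgeR adjusted p = 0.00213), a call lost without URE-AML library 2 (0.47) or Hox-URE library 3 (0.52) and in a fit of only the 6 libraries compared (0.58).

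The URE-AML libraries differed from each other along the synthesis enzymes. Library 1 was the lowest of its line for 18 of the 20 enzymes (90.0%), beside 36.7% of all tested genes, and the median ratio of its level to the mean of the other 2 libraries was 0.627, beside 0.997 over all genes. The exceptions were *Lbr* and *Ebp*. Among the other 12 genes of the list it was lowest for 6. No library of Hox-WT or Hox-URE was lowest for more than 11 of the 20. Hox-WT library 2 was the highest of its line for 14 of the 20 (70.0%, beside 31.1% of all tested genes). Hox-URE library 1 was the highest of its line for 13 (65.0%, beside 41.1%). URE-AML library 1 also had the lowest sum of neutrophil markers of its line (9140 CPM against 13600 and 20900), and the part of this in the enzyme levels was not tested. Without that library, the counts called higher and lower were 8 and 4 for URE-AML against Hox-WT and 12 and 2 against Hox-URE.

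**Figure D4:**
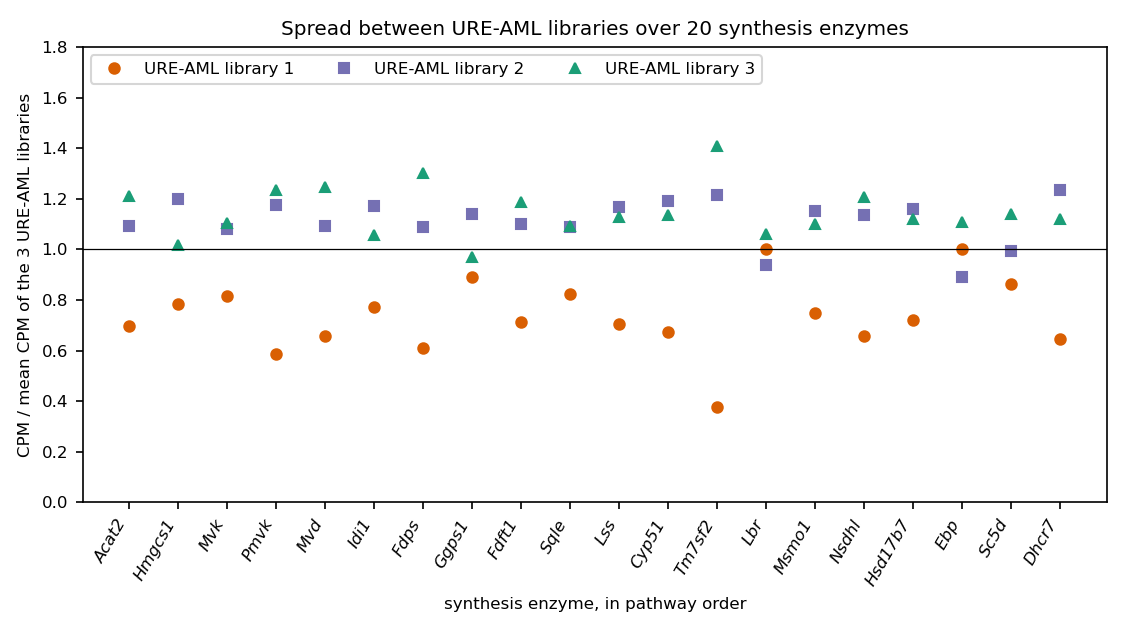
CPM of each synthesis enzyme in the 3 URE-AML libraries over their mean (linear axis from 0, line at 1), in pathway order. Library 1 (circles) lies lowest for 18 of the 20 enzymes, and libraries 2 (squares) and 3 (triangles) mostly lie above 1.

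Of 51 further genes around the pathway, 47 were tested. In Hox-URE 9 were called higher and 7 lower than Hox-WT, in URE-AML 11 higher and 8 lower than Hox-WT, and URE-AML had 11 higher and 10 lower than Hox-URE. These are 34.0%, 40.4% and 44.7% of those tested, near the shares of all genes given above. Of 12 genes of SREBP processing and enzyme turnover, Hox-URE had 1 called higher and 2 called lower, or 25.0% beside 37.2% of all tested genes. *Rnf145*, a sterol-responsive ubiquitin ligase and known LXR target, was at 69.1 to 77.0 CPM in Hox-WT, 10.6 to 15.5 CPM in Hox-URE and 44.3 to 48.1 CPM in URE-AML, and the calls were lower for Hox-URE (-2.50 ± 0.14) and lower for URE-AML (-0.64 ± 0.13). The proteases that release SREBP, *Mbtps1* and *Mbtps2*, were not called in Hox-URE, and *Mbtps2* was called lower in URE-AML than Hox-WT (-0.70 ± 0.14).

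Of 16 tested genes of other sterol uptake, transport and storage, Hox-URE had 4 above and 3 below Hox-WT by the same rule, and URE-AML had 5 above and 3 below. These are 43.8% and 50% of the 16, beside 37.2% and 43.2% of all tested genes. *Scarb1*, the receptor for high-density lipoprotein, was at 150 to 163 CPM in Hox-WT, 25.1 to 31.2 CPM in Hox-URE and 121 to 165 CPM in URE-AML. Only Hox-URE stood apart, and the gene was called lower there than Hox-WT (-2.46 ± 0.13). *Osbpl8*, a lipid transfer protein at membrane contacts, was called lower in each step from Hox-WT to Hox-URE (-1.41 ± 0.26) to URE-AML (-1.56 ± 0.26).

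Among the oxysterol genes and LXR partners, *Rxra*, whose product pairs with LXR on DNA, was at 7.68 to 8.95 CPM in Hox-WT, 34.0 to 37.8 CPM in Hox-URE and 99.2 to 109 CPM in URE-AML. The lines did not overlap, with log2 fold changes against Hox-WT of 2.10 ± 0.10 in Hox-URE and 3.65 ± 0.10 in URE-AML. *Ch25h*, which makes the LXR ligand 25-hydroxycholesterol, had 0 counts in every Hox-WT library, 309, 560 and 898 counts in Hox-URE, and 6, 5 and 1 counts in URE-AML. It was at least 248-fold higher in Hox-URE than Hox-WT, against a floor of 3 counts per library, and was called. *Abca7*, a lipid transporter related to *Abca1*, was at 55.0 to 59.0 CPM in Hox-WT, 111 to 120 CPM in Hox-URE and 139 to 183 CPM in URE-AML, and it was called higher in both URE lines than Hox-WT. Of the 5 tested genes of this list, 3 were called higher in Hox-URE and 2 in URE-AML and none lower, or 60% and 40%, beside 37.2% and 43.2% of all tested genes called either way. The genes of the oxysterol-making enzymes *Cyp27a1* and *Cyp7b1* were not tested for low counts. Of 11 genes of the non-sterol isoprenoid branches, 2 were called lower and none higher in Hox-URE, or 18.2% beside 15.9% of all tested genes called lower, namely *Nus1* (-1.05 ± 0.15), of dolichol synthesis, and *Pdss1* (-0.94 ± 0.20), of ubiquinone synthesis. *Rabggta*, a subunit of the enzyme that prenylates Rab proteins, was at 24.3 to 24.9 CPM in Hox-WT and 90.0 to 112 CPM in URE-AML and was called higher, while its partner gene *Rabggtb* was called lower (-0.97 ± 0.10).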

How the data were processed

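Poly-A RNA of the 3 lines was sequenced from stranded libraries. The authors quantified reads with salmon on a GRCm38 transcriptome, and tximport gave gene-level values. The deposited numbers are estimated counts per gene, held as whole numbers and not scaled to library size. Whether they were adjusted for transcript length was not given in the sources used here, so a change in transcript use could alter a count.

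Lines were taken from the labels. Of 54347 genes, 31051 had no count, and filterByExpr with a minimum count of 10 left 13082. One edgeR 4.0.16 model (R 4.3.3) held all 9 libraries (quasi-likelihood, TMM factors of 0.938 to 1.04, common biological coefficient of variation 0.173), and p was adjusted over all tested genes by the Benjamini-Hochberg method. Errors on log2 fold changes are standard errors. A floor of 3 counts equalled 0.104 to 0.153 CPM, which is counting error only. Levels per kilobase used the longest coding transcript of GENCODE M21, in which 54094 identifiers were found. Alternatives were other scalings, other filters, fewer libraries, a replicate block, DESeq2 1.42.0, glmTreat and leaving out each library. Code was tested on simulated data, and figures were drawn with matplotlib 3.10.9.

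The 32 genes and the further lists were chosen with earlier results of these data known. All 32 could be named, and further genes where they were called. *Cyp27a1*, *Cyp7b1*, *Mbtps1*, *Acat3*, *Hoxb8*, *Xist*, *Pacsin3* and the untested markers *Mrc1*, *Cd3e*, *Ms4a1* and *Ncr1* are named outside that rule. Libraries of a line differed by more than sampling noise (chi-square per degree of freedom 18.1 to 99.8).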

Additional observations from a re-analysis of the deposited data

Results flagged for a closer look

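*Mvk* and *Abca1* differed from Hox-WT in opposite directions in the lines that share the deletion. Both comparisons use the same 3 Hox-WT libraries, so the direct test between the URE lines is given. *Mvk* was lower in Hox-URE (-0.59) and higher in URE-AML (1.09) than in Hox-WT, and URE-AML exceeded Hox-URE by 1.67 ± 0.13 on the log2 scale (edgeR adjusted p = 2.38e-06). All 3 URE-AML libraries were above all 3 Hox-URE libraries. *Abca1* was higher in Hox-URE (1.63) and lower in URE-AML (-3.33), and the difference of URE-AML from Hox-URE was -4.96 ± 0.30 (edgeR adjusted p = 3.72e-07), lower in 3 of 3 libraries. The call of *Mvk* in Hox-URE against Hox-WT sat at the fold threshold and was lost on leaving out Hox-URE library 3 (-0.54) or Hox-WT library 2 (-0.56).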

How the results depend on the processing

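No log2 fold change of the 32 genes that was called changed sign under any alternative run, which were 17 per comparison, or 16 for *Nr1h3*, which the stricter filter left out. Calls that held under every alternative run for the gene were 4 of 11 for Hox-URE against Hox-WT, 7 of 13 for URE-AML against Hox-WT and 6 of 12 for URE-AML against Hox-URE. The test against a fold change of 1.5 left 2 genes called higher and 2 lower in Hox-URE, 5 higher and 2 lower for URE-AML relative to Hox-WT, and 5 higher and 1 lower for it relative to Hox-URE, since it asks for more than the fold threshold. Of all 13082 tested genes it called 2032 higher and 1335 lower, 2326 and 1961, and 1963 and 2216 in the same order. These are larger shares than those of the list. With library size as the only scaling, and with no filter on low counts, 1 gene was called lower in URE-AML than in Hox-URE. Library size only shifted the median of all genes by 0.109 in that comparison. With it, *Insig2* in Hox-URE (0.54) and *Ggps1* in URE-AML against Hox-URE (-0.48) were no longer called, and *Sc5d* in Hox-URE (-0.61), *Lbr* (0.64) and *Dhcr7* (0.61) in URE-AML against Hox-URE were. *Mvk* in Hox-URE was not called with DESeq2-style size factors, a stricter filter or DESeq2 (-0.58 each). Leaving out 1 library gave 3 to 5 genes higher and 4 to 8 lower when Hox-URE was set against Hox-WT, 5 to 8 and 4 to 7 when URE-AML was, and 7 to 12 and 1 to 2 between the URE lines. The lowest of these counts for Hox-URE came without Hox-WT library 2 (4 lower). DESeq2 called 4 higher and 6 lower, 7 higher and 6 lower, and 10 higher and 2 lower in the same order. Replicate numbers did not pair the libraries, with correlations of same-numbered deviations from 0.01 to 0.271. With the replicate number as a block, *Mvk* in Hox-URE (-0.58) and *Srebf1* in URE-AML against Hox-URE (0.58) were no longer called and *Tm7sf2* in URE-AML against Hox-URE was (-0.86), and the counts were 4 higher and 6 lower, 7 higher and 6 lower, and 9 higher and 3 lower. With 3 libraries a line, fold changes near 1.5 cannot be placed firmly on either side of the threshold.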
